A study of Mus musculus with 6 samples.

Results

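Motile cilia genes were read in poly(A) RNA sequencing of mouse ventral hippocampus, as 40 member genes chosen by symbol from 56941 gene identifiers. They cover the axonemal dyneins, radial spokes, central pair, nexin links, tektins and markers of ependymal cells. The rule is a list of gene symbols. Of the 40, 38 were matched by symbol and 2, Dnai1 and Dnai2, through older synonyms. The study compared 3 mice labelled NEGR1 overexpression with 3 labelled NEGR1 control, with working memory, anxiety-like and depression-like behaviour as the stated interest and NEGR1, a neuronal adhesion molecule, as the gene raised. The sources used here do not give how NEGR1 was raised, in which cells, what the controls received, or the strain, age and sex of the mice.

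Motile cilia beat because dynein motors fixed along the outer microtubule doublets of the axoneme slide those doublets against each other. Radial spokes and the central pair of microtubules time the strokes, and nexin links hold the doublets together. In the brain such cilia stand on the ependymal cells that line the ventricles, where they move cerebrospinal fluid. The ventral hippocampus borders the lateral ventricle, where ependymal cells and the epithelium of the choroid plexus both occur. In bulk tissue, fewer cells of a type and less RNA per cell cannot be told apart.

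Transcription of these genes is driven by FOXJ1, a forkhead factor, together with RFX factors, which bind a palindromic element called the X-box. RefSeq start sites (GRCm38.p6) were at hand for 33 of the 40 members. The 250 bases before each start were searched on both strands for the X-box, read as GTNNCC and GNAAC with 3 bases between them, for its core GTTGCC, which can lie inside an X-box, and for the forkhead core TGTTTAC. An X-box match was found before 5 of 35 member starts (14.3%) and before 1.8% of the starts of all genes in that table. The core GTTGCC was found before 14 of 35 member starts (40%) against 10.4% of all starts, and TGTTTAC before 2 (5.71%) against 3.17%. A match describes the letters only and shows no binding. Similar elements with other letters or another spacing were not counted, so the X-box shares hold for the searched pattern only. The following 5 stretches are shown because Cfap44 and Hydin each hold a single X-box match close to the start, and Enkur, Tekt1 and Tekt4 had the smallest unadjusted p-values among the members with a start at hand, Dnah10 apart. Capitals mark X-box and GTTGCC matches, the latter read as GGCAAC where it lies on the other strand, and each stretch ends at the base before the start.
Cfap44, chr16:44394549-44394798, plus strand: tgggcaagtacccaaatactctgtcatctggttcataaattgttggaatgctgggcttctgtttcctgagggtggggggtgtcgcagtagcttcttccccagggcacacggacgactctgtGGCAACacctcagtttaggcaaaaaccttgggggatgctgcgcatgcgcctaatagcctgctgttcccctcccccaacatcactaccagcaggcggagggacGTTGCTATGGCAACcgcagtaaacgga
Hydin, chr8:110266727-110266976, plus strand: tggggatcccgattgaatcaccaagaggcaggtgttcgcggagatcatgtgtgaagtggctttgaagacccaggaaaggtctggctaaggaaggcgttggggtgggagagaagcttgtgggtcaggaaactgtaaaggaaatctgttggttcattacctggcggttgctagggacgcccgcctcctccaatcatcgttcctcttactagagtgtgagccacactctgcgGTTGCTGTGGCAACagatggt
Enkur, chr2:21205366-21205615, minus strand: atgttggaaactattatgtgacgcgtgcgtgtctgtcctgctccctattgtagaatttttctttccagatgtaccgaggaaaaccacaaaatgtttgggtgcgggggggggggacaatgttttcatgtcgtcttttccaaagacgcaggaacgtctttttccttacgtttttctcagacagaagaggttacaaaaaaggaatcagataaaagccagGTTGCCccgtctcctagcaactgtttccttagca
Tekt1, chr11:72361883-72362132, minus strand: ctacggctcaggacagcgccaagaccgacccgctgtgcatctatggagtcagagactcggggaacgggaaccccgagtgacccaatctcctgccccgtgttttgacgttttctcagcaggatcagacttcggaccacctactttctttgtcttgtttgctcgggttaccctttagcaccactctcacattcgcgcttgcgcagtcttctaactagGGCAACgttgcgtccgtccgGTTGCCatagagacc
Tekt4, chr17:25471340-25471589, plus strand: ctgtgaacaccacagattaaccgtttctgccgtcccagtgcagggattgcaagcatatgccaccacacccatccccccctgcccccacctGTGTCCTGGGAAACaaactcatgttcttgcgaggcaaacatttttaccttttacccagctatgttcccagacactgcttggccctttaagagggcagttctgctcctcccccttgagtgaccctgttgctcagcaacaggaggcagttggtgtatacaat

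On the printed strand the X-box letters were GTTGCTATGGCAAC before Cfap44 and GTTGCTGTGGCAAC before Hydin, where the match lies on the opposite strand. They began 27 and 21 bases before the start. Before Tekt4 the match was GTGTCCTGGGAAAC, beginning 160 bases upstream, without the GTTGCC core. The palindromic letters gttgctcagcaac lie nearer the Tekt4 start. They differ from the searched pattern in letters and spacing and were not counted. Enkur held 1 core and Tekt1, at the farther upstream of its 2 starts, held 2 cores.

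The 6 libraries held 30726110 to 38108394 counts. Values are CPM, counts scaled to library size with TMM factors, and a fold change divides the overexpression by the control level. Negr1 stood at 185, 199 and 195 CPM in overexpression replicates 1, 2 and 3 and at 181, 168 and 180 CPM in control replicates 1, 2 and 3. The groups did not overlap, but the 1.09-fold difference did not pass edgeR's test (adjusted p = 0.488). Choroid plexus markers set 1 library apart: all 18 were highest in overexpression replicate 1, where they summed to 841 CPM, against 76.7 and 95.95 CPM in the other overexpression libraries and 43.5 to 68.3 CPM in the control libraries. None of the 18 was at 0 in all libraries. Ttr, the transthyretin gene of that epithelium, was at 640 CPM in that library and at 3.08 to 38.3 CPM elsewhere. Meningeal fibroblast markers (12 of 12 above 1, median log2 fold change 0.65) summed to 142 to 186 CPM in overexpression and 101 to 157 CPM in control libraries. Oligodendrocyte markers (10 of 10 below 1, median -0.37) summed to 3162 to 3732 and 3925 to 4967 CPM. Markers of hippocampal neurons were present in every library, at 4476 to 5156 CPM in sum.

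No member passed the test between overexpression and control. In edgeR's quasi-likelihood test 0 of the 39 members with enough counts passed an adjusted p of 0.05 in either direction. Of all 19354 genes tested 9 passed (0.0465%), 0.0258% higher and 0.0207% lower in overexpression. The smallest adjusted p was 0.38, for Tekt4, and DESeq2 called 0 of the members (smallest adjusted p = 0.339) and 0.618% of all genes given an adjusted p. An unadjusted p under 0.05 was reached by 4 members in edgeR and 3 in DESeq2. The 4 are 10.3% of those tested, beside 9.24% of all genes, which is near that background. Mia, a secreted protein gene, was left out of the test, with 26 counts in the 6 libraries together. All 40 members had at least 1 count in every library.

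Of the 39 tested members 27 had a fold change below 1 and 12 above 1. The median log2 fold change was -0.067, beside 0.0015 over all genes tested, and 49.6% of all genes lay below 1 and 50.4% above. With no filter, so that all 40 members had a value, the median was -0.064 and 26 lay below 1. Groups did not overlap for 3 members, Tekt4 higher and Tekt1 and Ccdc40 lower in overexpression. These are 7.69% of the members tested, while 15.1% of all genes had groups that did not overlap, 7.07% higher and 8.07% lower. The members' standard errors ran from 0.067 for Ccdc39 to 0.59 for Drc7 on the log2 scale, with a median of 0.195.

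**Figure D1:**
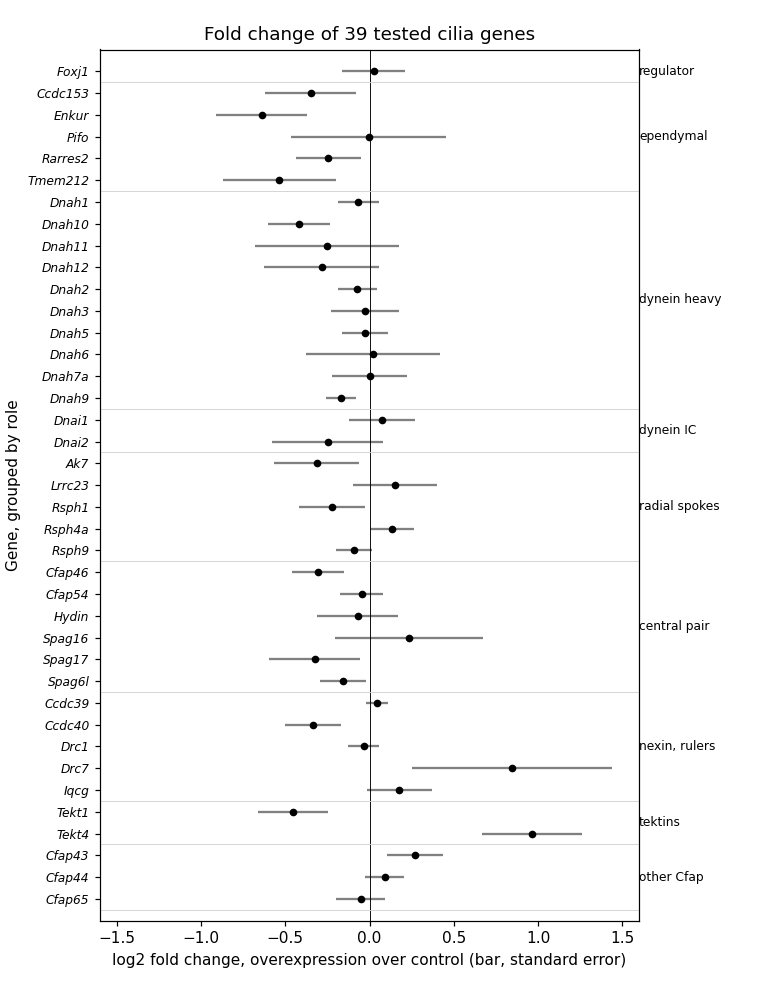
Points give the log2 fold change, overexpression over control, of the 39 tested cilia genes by role, and bars the standard error (3 libraries per group). Most points lie within 0.5 of 0, with Tekt4 (0.96) and Drc7 (0.85) farthest above and Enkur (-0.64) farthest below.

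The members differed between the libraries of each group. Control replicate 2 was the highest of the 6 libraries for 25 of 39 members (64.1%), where it was the highest for 18% of all genes tested. Overexpression replicate 3 was the lowest for 16 members (41%), against 21% of all genes. Within the control group, replicate 2 lay above both others for 31 of 39 members, beside 36.9% of all genes, with a median ratio to the mean of the other control libraries of 1.31, beside a ratio near 1 over all genes. Within the overexpression group, replicate 1 lay above both others for 29 members, beside 34.5% of all genes, with a median ratio of 1.17. These shares describe the libraries and were not tested, since the members share cells and libraries.

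Averaged over the tested members, the log2 deviation from the mean of 6 libraries was 0.19, -0.071 and -0.22 in overexpression replicates 1, 2 and 3. It was -0.15, 0.30 and -0.051 in control replicates 1, 2 and 3. The highest value of each group came from 1 library, and the ranges of the groups overlapped. The median log2 fold change of the members was 0.038 without control replicate 2 and 6.7e-04 without overexpression replicate 3, so its sign changed when either library was left out. It was -0.21 without overexpression replicate 1, the library with the choroid plexus markers. Without both overexpression replicate 1 and control replicate 2, a choice made after the data were seen, it was -0.066, and 0 members passed (smallest adjusted p = 0.208).

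**Figure D2:**
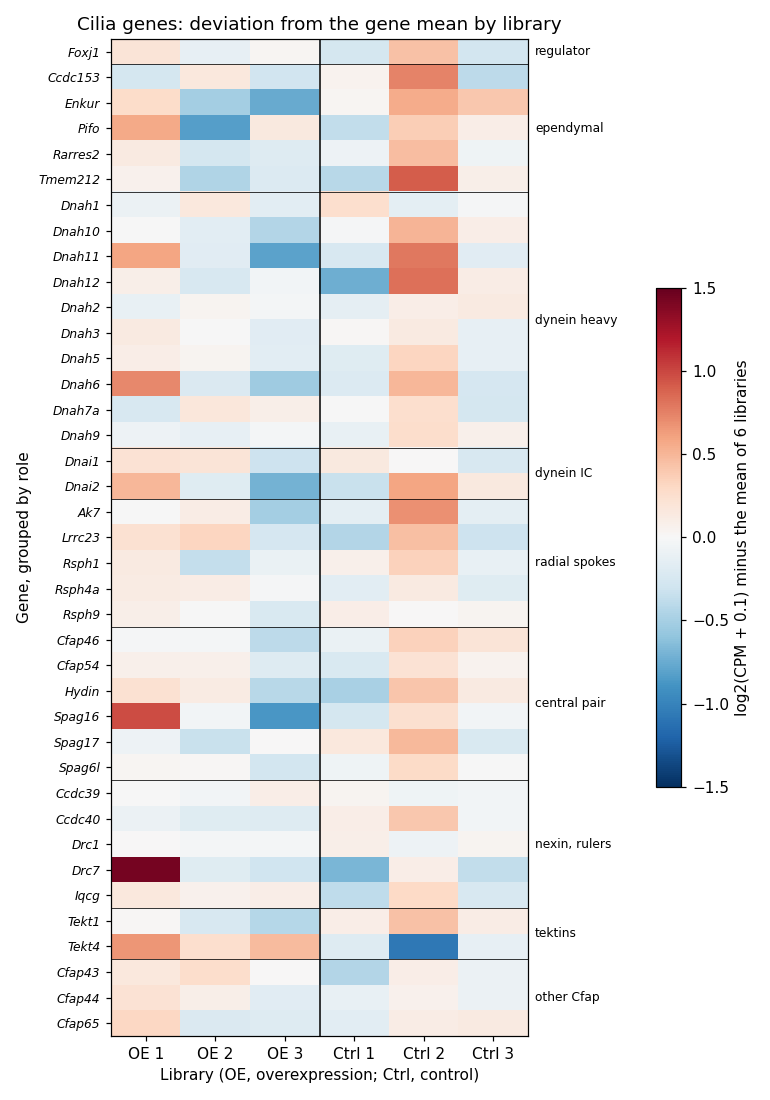
Rows are the 39 tested cilia genes by role, columns the 6 libraries, and colour gives log2(CPM + 0.1) minus the gene's mean over the libraries. The column of control replicate 2 is red for most rows, with Tekt4 as the clearest exception, and Drc7 and Spag16 stand out in overexpression replicate 1.

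Foxj1, the forkhead factor that switches on motile cilia genes, had no difference between groups beyond the spread. It was at 7.79, 6.26 and 6.99 CPM in overexpression replicates 1 to 3 and at 5.67, 9.26 and 5.64 CPM in control replicates 1 to 3. Control replicate 2 was the highest and the other control libraries the lowest, so the overexpression libraries lay inside the control range. Its 1.02-fold difference had a 95% interval of 0.766 to 1.35 (edgeR adjusted p = 0.983). The 2 libraries highest for Foxj1, control replicate 2 and overexpression replicate 1, were also the 2 with the highest mean deviation of the members.

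The ependymal markers had the lowest median log2 fold change of the role groups with 3 or more tested members, at -0.35 over 5. All 5 lay below 1, Pifo barely so at a log2 fold change of -0.0049. Without control replicate 2 Ccdc153 (0.034) and Pifo (0.233) lay above 1. Rarres2 (-0.033), Tmem212 (-0.044) and Enkur (-0.515) stayed below. Enkur, which encodes a protein inside the axonemal doublets, was at 2.65, 1.49 and 1.25 CPM in overexpression and 2.21, 3.24 and 2.92 CPM in control replicates 1 to 3. Its lower overexpression values came from replicates 2 and 3, while replicate 1 lay within the control range. Its log2 fold change was -0.64 ± 0.27 (SE), with an unadjusted p of 0.0334 and an edgeR adjusted p of 0.492. It was -1.03 without overexpression replicate 1, where the adjusted p was 0.098, the smallest of any member in the fits that left out a library. Tmem212, a membrane protein that marks ependymal cells, was at 1.25, 0.848 and 1.03 CPM in overexpression and 0.872, 2.34 and 1.28 CPM in control replicates 1 to 3. The highest overexpression library and control replicate 3 were nearly level, control replicate 2 lay far above both, and without it the log2 fold change was -0.044 in place of -0.54. Rarres2, the gene of chemerin, and Ccdc153, a coiled-coil protein gene, were likewise highest in control replicate 2, at 4.76 and 4.87 CPM, against 2.84 to 3.76 and 2.16 to 3.22 CPM in the other 5 libraries. Pifo, which encodes a protein at the base of the cilium, was at 0.175 to 0.626 CPM in overexpression and 0.28 to 0.532 CPM in control libraries.

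The 14 other ependymal markers, which are no members, had the same 2 highest libraries. Control replicate 2 was the highest for 7 of them and overexpression replicate 1 for 3, beside 18% and 16.3% of all genes tested. The count for overexpression replicate 1 is near that background. Their mean log2 deviation was 0.39 in control replicate 2 and 0.197 in overexpression replicate 1, against -0.32 to 0.030 in the other libraries. Of the 13 tested, 0 passed in either direction, 5 lay above 1 and 8 below (median -0.030 on the log2 scale). The one farthest from 1 was Calml4, at 2.68 CPM in overexpression replicate 1 and 0.393 to 0.943 CPM elsewhere (edgeR adjusted p = 0.542). Meig1 was at 0.985 ± 0.287 against 1.35 ± 0.429 CPM (SD, n = 3 each; edgeR adjusted p = 0.682).

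Axonemal dynein heavy chains, the motor subunits, were measured for 10 genes. Of these 9 lay below 1, by small amounts, with log2 fold changes from -0.42 to 0.022 and edgeR adjusted p-values from 0.506 upward. Among the 9, Dnah7a lay at -5.5e-04. Control replicate 2 was the highest library for 7 of the 10, where it was the highest for 18% of all genes. Without that library Dnah3, Dnah5, Dnah6, Dnah7a, Dnah11 and Dnah12 lay above 1. Dnah9, a motor of the outer arm, was the most abundant, at 23.8, 23.0 and 24.7 CPM in overexpression and 23.4, 30.3 and 26.6 CPM in control replicates 1 to 3. The overexpression libraries lay close together at the low end of the control range (log2 fold change -0.17 ± 0.089 (SE), edgeR adjusted p = 0.597). Dnah10, a motor of the inner arm, was at 3.88, 3.48 and 2.83 CPM against 3.83, 5.59 and 4.16 CPM. The groups overlapped by a single library on each side, overexpression replicate 1 and control replicate 1. Its log2 fold change was -0.42 ± 0.18 (SE), with an unadjusted p of 0.0381 and an edgeR adjusted p of 0.506.

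Among the remaining heavy chains some were steady and some variable. Dnah2, Dnah3, Dnah1, Dnah7a and Dnah5 differed by 1.21, 1.25, 1.34, 1.46 and 1.42 times between their highest and lowest library. Dnah6, Dnah11 and Dnah12 differed by 2.42, 3.2 and 3.12 times. Dnah6, of the inner arm, stood at 8.53 CPM in overexpression replicate 1 and 7.34 CPM in control replicate 2, against 3.52 to 4.45 CPM in the other 4 libraries. Dnah11, of the outer arm, was high in the same 2 libraries, at 3.46 and 3.99 CPM against 1.25 to 2 CPM. For both genes the high libraries were split between the groups, and their log2 fold changes were 0.022 and -0.25. Without overexpression replicate 1 they were -0.45 and -0.72, and without control replicate 2 they were 0.32 and 0.19. Dnah12 was high in control replicate 2 only, at 3.4 CPM against 1.09 to 2.03 CPM.

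Dnah7a shares much of its sequence with Dnah7b and Dnah7c, so reads could have been divided among them. Dnah7a was at 1.49 to 2.02 CPM in overexpression and 1.48 to 2.15 CPM in control libraries. Dnah7b was at 7.51 ± 0.348 against 8.04 ± 0.669 CPM and Dnah7c at 4.27 ± 1.16 against 3.25 ± 0.341 CPM (SD, n = 3 each), with edgeR adjusted p-values of 0.828 and 0.573. Of the 7 other dynein and docking genes tested, 0 passed, 4 lay above 1 and 3 below. Dnal1, a light chain, had groups that did not overlap, at 170.2 ± 5.49 against 156 ± 4.79 CPM (edgeR adjusted p = 0.497).

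The dynein intermediate chains Dnai1 and Dnai2, which anchor the outer arm, had fold changes on opposite sides of 1. Dnai2 was at 3.34, 2.05 and 1.39 CPM in overexpression and 1.84, 3.56 and 2.59 CPM in control replicates 1 to 3, the library order of Dnah11. Dnai1 was at 3.4, 3.36 and 2.33 CPM and at 3.24, 2.93 and 2.46 CPM. Both had overlapping groups, with edgeR adjusted p-values of 0.863 and 0.943. Of 10 tested dynein assembly factors, 0 passed, 3 lay above 1 and 7 below. Cfap300 had the smallest p among them, at 13.9 ± 1.85 against 11.8 ± 0.56 CPM (SD, n = 3 each; edgeR adjusted p = 0.521), and Dnaaf5 was at 6.68 ± 0.0663 against 7.79 ± 0.499 CPM (edgeR adjusted p = 0.585).

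**Figure D3:**
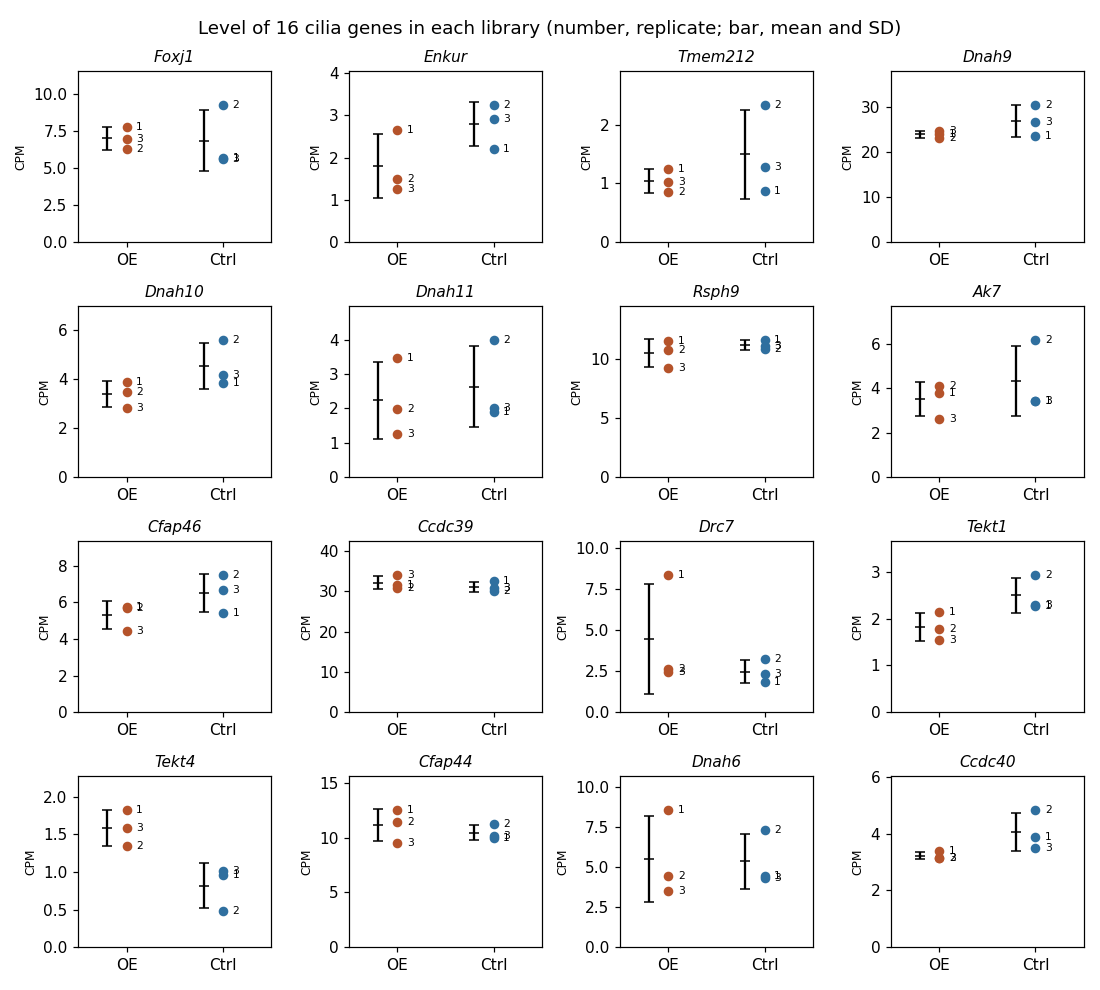
Each panel gives the CPM of 1 gene in the 3 overexpression (OE) and 3 control (Ctrl) libraries, with the replicate number beside each point and the mean and SD to the left. Control replicate 2 is the top control point for Foxj1 (9.26), Tmem212 (2.34) and Dnah6 (7.34), while Ccdc39 and Rsph9 differ little between libraries.

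Radial spoke genes had log2 fold changes from -0.31 to 0.15. Rsph9, of the spoke head, was steady at 11.5, 10.8 and 9.24 CPM in overexpression and 11.6, 10.9 and 11.1 CPM in control replicates 1 to 3. Ak7, an adenylate kinase of the axoneme, was at 3.79, 4.12 and 2.64 CPM and at 3.43, 6.17 and 3.41 CPM. Control replicate 2 lay above and overexpression replicate 3 below all other libraries, which stood close together. Rsph1, of the spoke head, was at 3.04, 2.13 and 2.58 CPM and at 2.93, 3.54 and 2.56 CPM, with overlapping groups. The edgeR adjusted p-values were 0.833 for Rsph9, 0.747 for Ak7 and 0.763 for Rsph1. Lrrc23 and Rsph4a, also spoke proteins, lay above 1, at log2 fold changes of 0.15 and 0.13.

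Of the 6 central pair genes 5 lay below 1. Cfap46, which encodes a protein of a central pair projection, was at 5.76, 5.7 and 4.44 CPM in overexpression and 5.42, 7.47 and 6.69 CPM in control replicates 1 to 3. Control replicate 1 lay among the overexpression libraries, and the log2 fold change was -0.30 ± 0.15 (SE; edgeR adjusted p = 0.58). Cfap54, a partner in the same projection, was at 10.4, 10.4 and 8.63 CPM and at 8.47, 11.6 and 10.3 CPM, with a log2 fold change of -0.046. Spag17 was at 1.07, 0.877 and 1.14 CPM and at 1.28, 1.62 and 0.951 CPM, so control replicate 3 lay inside the overexpression range (edgeR adjusted p = 0.75). Spag16 differed by 4.23 times between libraries, with 1.76 CPM in overexpression replicate 1 and 0.416 to 1.01 CPM elsewhere, and its log2 fold change of 0.24 became -0.45 without that library. Hydin, a very large central pair protein gene, was at 4.53, 4.18 and 2.86 CPM and at 2.71, 5.16 and 4.23 CPM, with overlapping groups. Spag6l was at 6.32 ± 0.741 against 7.03 ± 0.947 CPM and its near copy Spag6 at 1.62 ± 0.182 against 1.6 ± 0.455 CPM (SD, n = 3 each).

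Genes of the nexin links and of the ruler that spaces dyneins along the doublet included the steadiest members and the most variable of the tested ones. Drc1, of the nexin link, differed by 1.12 times between its highest and lowest library, and Ccdc39, of the ruler, by 1.13 times. Ccdc39 shares 16.9% of its exon bases with Ttc14, a more abundant gene on the opposite strand. The part of Ttc14 reads in the Ccdc39 values was not tested. Ccdc39 was at 31.6, 30.8 and 34.0 CPM in overexpression and 32.5, 30.1 and 30.9 CPM in control replicates 1 to 3 (log2 fold change 0.044 ± 0.067 (SE)). Its ruler partner Ccdc40 was at 3.37, 3.16 and 3.13 CPM and at 3.86, 4.81 and 3.51 CPM. All 3 overexpression libraries of Ccdc40 lay below the control libraries, with a log2 fold change of -0.34 ± 0.17 (SE; edgeR adjusted p = 0.564).

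Drc7, of the nexin link, was at 8.35 CPM in overexpression replicate 1, against 2.66 and 2.44 CPM in the other overexpression libraries and 1.84, 3.24 and 2.33 CPM in control replicates 1 to 3. Its log2 fold change was 0.85 ± 0.59 (SE; edgeR adjusted p = 0.727), and 0.036 without overexpression replicate 1. That library also held the choroid plexus markers, whose part in the Drc7 value was not tested. The 8 members highest in it were Drc7, Spag16, Dnah6, Pifo, Dnai1, Tekt4, Cfap44 and Cfap65. They are 20.5% of the members tested, near the 16.3% of all genes that were highest in that library. Iqcg, also of the nexin link, was at 3.43 ± 0.11 against 3.02 ± 0.806 CPM (SD, n = 3 each).

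The tektins, filament proteins inside the doublets, pointed in opposite directions. Tekt4 was at 1.82, 1.34 and 1.58 CPM in overexpression and 0.965, 0.479 and 1.02 CPM in control replicates 1 to 3, from 46 to 61 counts per overexpression library and 18 to 31 per control library. All overexpression libraries lay above all control libraries. The difference was 1.95-fold (95% interval 1.25 to 3.03), with an unadjusted p of 0.00601 and an edgeR adjusted p of 0.38. Over the fits that left out 1 library the log2 fold change stayed between 0.67 and 1.14. Control replicate 2, highest for most members, was the lowest for Tekt4. Tekt1 was at 2.15, 1.78 and 1.55 CPM and at 2.27, 2.93 and 2.3 CPM, lower in overexpression without overlap. Its log2 fold change was -0.46 ± 0.21 (SE), with an unadjusted p of 0.0464 and an edgeR adjusted p of 0.533.

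The other flagellum-associated genes overlapped between groups. Cfap43 was at 4.89, 5.26 and 4.38 CPM in overexpression and 3.21, 4.71 and 4.13 CPM in control replicates 1 to 3 (log2 fold change 0.27 ± 0.17 (SE), edgeR adjusted p = 0.658). Cfap44, its partner in a complex that tethers an inner arm dynein, was at 12.5, 11.4 and 9.54 CPM and at 9.97, 11.2 and 10.1 CPM (edgeR adjusted p = 0.854). Cfap65 was at 12.5 CPM in overexpression replicate 1 and 8.65 to 11.1 CPM elsewhere.

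Per length, the members spanned a wide range. Divided by exon length, mean levels ran from 6.78 CPM per kb for Rsph9 to 0.127 for Mia. Rsph9, Drc1 (4.54) and Ccdc39 (4.25) led, followed by Foxj1 (2.64) and Rsph1 (2.04). All 10 heavy chains lay lower, from 1.59 CPM per kb for Dnah9 to 0.138 for Dnah3. The 3 leading genes differed by 1.12 to 1.26 times between their highest and lowest library, against 1.64 times for Foxj1. Which cells of the tissue hold the transcripts of these genes was not tested.

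**Figure D4:**
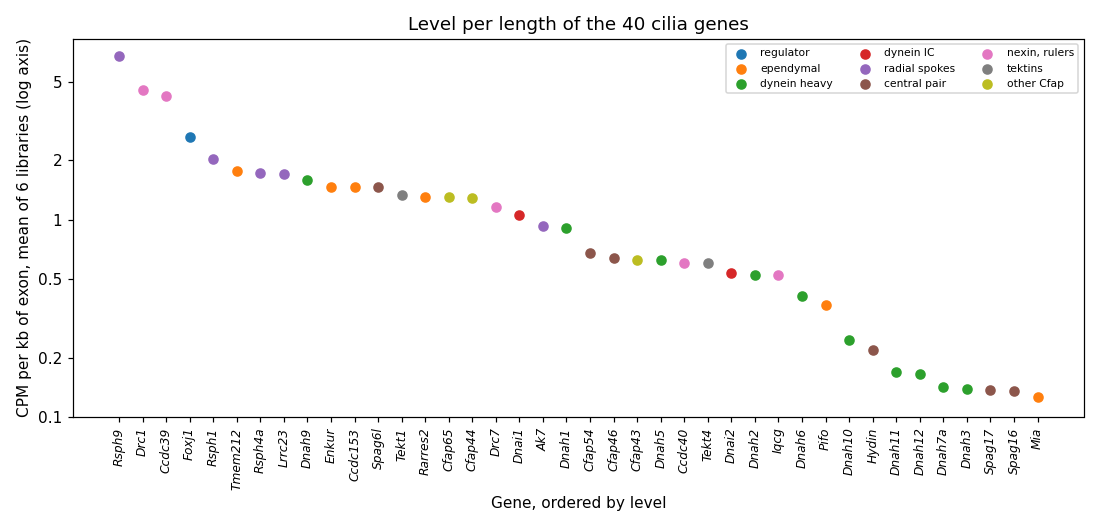
Points give the mean CPM per kb of exon over 6 libraries for the 40 members, ordered by level on a log axis and coloured by role. Rsph9, Drc1 and Ccdc39 lead, and 7 members lie at or under 0.168 CPM per kb.

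Some members overlap another gene, so their values are less certain where reads were counted without strand. In the GENCODE M21 annotation 5 members shared over 5% of their exon bases with a gene on the opposite strand. Iqcg shared 48.1% with Lrch3, Rarres2 33.6% with Lrrc61, Ccdc39 16.9% with Ttc14, Dnah3 10.5% with Lyrm1 and Spag17 9.66% with Wdr3. All 5 of these genes were more abundant than the member they overlap. Mean levels were 29.2 CPM for Lrch3 against 3.22 for Iqcg, 11.5 for Lrrc61 against 3.47 for Rarres2, and 184 for Ttc14 against 31.7 for Ccdc39. Lyrm1 was at 7.5 CPM against 1.98 for Dnah3, and Wdr3 at 24.5 against 1.16 for Spag17. Mia shared 41.2% with a same-strand gene.

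No gene of the related lists passed the test either. Of 9 tested regulators of multiciliated cells, 0 passed, 5 lay above 1 and 4 below. Gmnc, which starts the multiciliated programme, was at 2.6, 3.39 and 2.64 CPM in overexpression and 2.3, 2.23 and 1.54 CPM in control replicates 1 to 3. Its groups did not overlap, with a fold of 1.41 and an edgeR adjusted p of 0.489. Trp73, a transcription factor of the same programme, was at 2.4 ± 0.918 against 3.19 ± 0.32 CPM (SD, n = 3 each; edgeR adjusted p = 0.636). Foxn4 was at 0 counts in all libraries. Of 24 other axoneme genes, 0 passed, 16 lay above 1 and 8 below, with Gas8 at 24.9 ± 1.08 against 27.4 ± 2.37 CPM and Cfap69 at 21.3 ± 1.25 against 19.3 ± 1.5 CPM (SD, n = 3 each).

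Taken as lists, genes of intraflagellar transport and of the immotile primary cilium of neurons were steady across libraries. Of 22 intraflagellar transport genes, which carry cargo along the axoneme, 0 passed, 14 lay above 1 and 8 below. Their mean log2 deviation was between -0.024 and 0.026 in every library, a narrow range beside -0.22 to 0.30 for the members. The 2 lists differ in level: the 22 genes summed to 1087 to 1129 CPM per library and the 40 members to 210 to 268 CPM. The part of level in the width of these ranges was not tested. Kif3a, a transport motor, was at 148 ± 5.09 against 159 ± 3.42 CPM and Ift57 at 29.7 ± 1.99 against 31.6 ± 2.21 CPM (SD, n = 3 each). Of 17 primary cilium and BBSome genes, 0 passed, 7 lay above 1 and 10 below, with deviations of -0.034 to 0.024. Mchr1, a receptor of neuronal cilia, was at 13.7 ± 1.04 against 16.5 ± 1.78 CPM (SD, n = 3 each; edgeR adjusted p = 0.456), and Arl6, a GTPase that recruits the BBSome, at 19.1 ± 0.654 against 16.7 ± 0.839 CPM (edgeR adjusted p = 0.487).

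**Figure D5:**
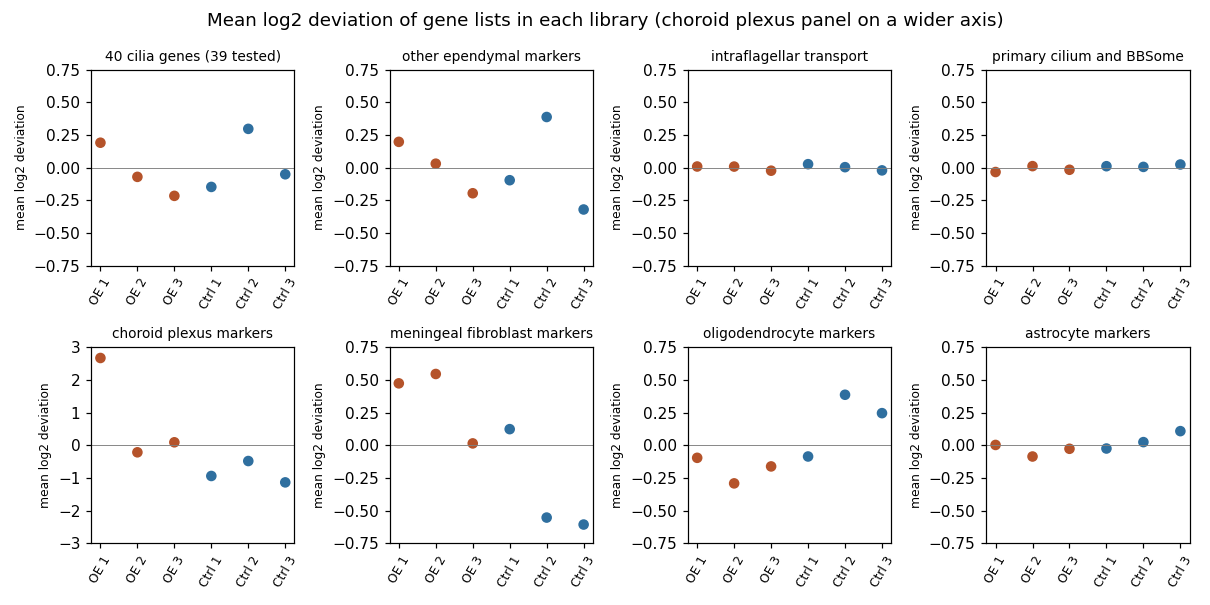
Points give the mean log2 deviation of each gene list in the 6 libraries, overexpression (OE) in brown and control (Ctrl) in blue. Cilia genes and other ependymal markers peak in control replicate 2, choroid plexus markers (wider axis) in overexpression replicate 1 (2.68), and intraflagellar transport and primary cilium genes stay near 0.

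Control replicate 2, the library with the most counts, was the highest of the control libraries for choroid plexus markers: its mean log2 deviation was -0.48, and that of control replicates 1 and 3 was -0.94 and -1.13. On the meningeal list it was at -0.55, against 0.12 and -0.61. On the oligodendrocyte list it was the highest of all 6, at 0.39, with control replicate 3 next at 0.25. On the astrocyte list it was at 0.025. The part of these tissues in the members' values was not tested.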

How the data were processed

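Poly(A) mRNA of Trizol-extracted ventral hippocampus was made into strand-specific libraries with dUTP in the second strand, per the labels' protocols. The authors deposited raw counts by Ensembl gene in a single table with a column for each library. The submitters' processing notes list Trimmomatic 0.36, STAR 2.7.10 and featureCounts 2.0.3 with 2 builds, mm10 and GRCm39, and assign none of them a step. The sources used here do not give the build, annotation release or strand setting behind the counts.

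Of 56941 identifiers 51948 had a symbol. Totals were 30726110 to 38108394 counts per library, and every pair of libraries differed beyond sampling noise (chi-square per degree of freedom of 4.28 to 12.9). The series' design text names separate mice. All genes were fitted with edgeR 4.0.16's quasi-likelihood test (robust; R 4.3.3), with TMM factors, the default filter and group as the only term, and Benjamini-Hochberg adjustment of the p-values over 19354 genes. Standard errors came from the F statistic. Alternatives were DESeq2 1.42.0 and its size factors, other filters, a replicate block and left-out libraries. Deviations used log2(CPM + 0.1). The fit was also run on counts simulated from its own means and dispersions. Those counts hold no library differences shared by many genes, so that run checks the fit under its own model only.

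The members and lists were chosen with earlier results of these data known. Named genes are, in each role, the 2 with the smallest p and the most abundant, with Foxj1; others named were picked after their values were seen. Of 181 genes in the other lists 7 had no match. Exon lengths and overlaps came from GENCODE M21. Where a value is given as mean ± SD, n is 3 libraries.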

Additional observations from a re-analysis of the deposited data

How the results depend on the processing

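No member passed under any alternative run. The smallest adjusted p over the members was 0.0836 with no filter and 0.098 to 0.654 when 1 library was left out. Over all genes the count called was 9 with DESeq2's size factors, 108 with DESeq2's Wald test, 304 with no filter, 5 with at least 1 CPM in 3 libraries, and 33 without overexpression replicate 1 and control replicate 2 together, the one setting here chosen after the data were seen. It was 63, 5 and 7 without overexpression replicate 1, 2 and 3 and 39, 2 and 3 without control replicate 1, 2 and 3. The members' median log2 fold change was -0.21 to 0.038 over the fits that left out 1 library and between -0.067 and -0.063 over the other alternatives. Members with groups that did not overlap numbered 8, 3 and 6 of 39 without overexpression replicate 1, 2 and 3 and 11, 10 and 4 without control replicate 1, 2 and 3 (23.4 to 29.2% of all genes) and 16 without both libraries (43.9% of all genes); fewer libraries separate more often. With the replicate number as a block 26 genes passed and 0 members (smallest edgeR adjusted p = 0.267). The deviations of same-numbered libraries from their group means correlated weakly (r = 0.0174, 0.0172 and 0.0232 for replicates 1, 2 and 3). Each library still correlated best with that of its own number, with r of -0.0344 to 0.0148 between unlike numbers. The labels state no pairing, and correlations this near 0 cannot decide whether the numbers pair the samples. With the replicate block Dnah6 was at -0.020 and Dnah7a at 0.0067. Dnah7a was also at 7.8e-04 with DESeq2's size factors, 0.0015 with DESeq2, 0.0043 with no filter and 0.0036 with the stricter filter, and Pifo at 0.0025 with DESeq2 and 0.0014 with no filter; both lay within 0.005 of 0 as reported. Leaving out 1 library changed the sign of 19 members and kept that of 20. The ranges of log2 fold change for the 19 were: Ak7 -0.46 to 0.038, Ccdc153 -0.58 to 0.034, Cfap54 -0.15 to 0.064, Cfap65 -0.24 to 0.039, Dnah1 -0.17 to 0.059, Dnah11 -0.72 to 0.19, Dnah12 -0.60 to 0.21, Dnah3 -0.11 to 0.052, Dnah5 -0.12 to 0.15, Dnah6 -0.45 to 0.32, Dnah7a -0.12 to 0.15, Dnai1 -0.025 to 0.23, Dnai2 -0.65 to 0.026, Drc1 -0.083 to 0.0022, Foxj1 -0.096 to 0.31, Hydin -0.28 to 0.15, Lrrc23 -0.014 to 0.51, Pifo -0.41 to 0.36, Spag16 -0.45 to 0.61. Without overexpression replicate 1 and control replicate 2 together the members with the other sign were: Ccdc153 0.10, Dnah5 0.098, Dnah6 -0.14, Dnah7a 0.27, Dnah12 0.13, Dnai1 -0.0061, Spag16 -0.29, Hydin 0.020, Cfap54 0.020. The cause was not tested. Mia had 26 counts in all, which limits its value. The 95% intervals of the fold were wide for Drc7 (0.625 to 5.17) and Dnah6 (0.514 to 2), whose overexpression replicate 1 stood at 8.35 and 8.53 CPM.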
